A study of Mus musculus with 6 samples.

Results

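The 35 genes described here carry out DNA replication and mitosis: 14 act in S phase, when the genome is copied, and 21 act in mitosis, when the copies are pulled apart. They were taken by gene symbol from the 22098 gene names of the deposited expression table. Where a symbol had several transcripts, as for 7 of the 35, the transcript with the highest mean stood for the gene. RNA came from sorted marrow B cells that carry IgM at their surface. The C57BL/6 mice, 6 weeks old, were wild type, Ikaros-ZnF1-/- (called the ZnF1 mutant or ZnF1-/- here) or Ikaros-ZnF4-/- (the ZnF4 mutant or ZnF4-/-), with 2 libraries per genotype. Ikaros is a zinc finger transcription factor of lymphocytes that binds DNA through a cluster of fingers near its amino terminus, and ZnF1 and ZnF4 are the outer fingers of that cluster. The labels number the libraries of a genotype as replicates but do not state that each came from a separate mouse. In each mutant the sex-linked genes Xist and Ddx3y put the 2 libraries in mice of different sex. Both wild-type libraries were female, so for them p-values may rest on technical spread only. Levels are RPKM (reads normalised to transcript length and library size), and mean values are given ± SD with n = 2.

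S phase genes load and run the replication machinery. Licensing factors place the MCM helicase on origins, the helicase opens the duplex, the sliding clamp holds the polymerases on DNA, and enzymes of nucleotide synthesis supply the building blocks. Mitotic genes come later in the cycle: cyclins and kinases drive entry, the spindle and its motors move chromosomes, the checkpoint holds the cell until all are attached, and a ubiquitin ligase then releases them. In most cells S phase genes are transcribed by E2F factors, and many mitotic genes are controlled through a CHR element with CCAAT boxes, bound by the DREAM complex in resting cells and by B-Myb and FoxM1 in cycling cells. In marrow, surface IgM marks B cells that have passed the large cycling pre-B stage, and most of these cells are at rest.

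The promoters of the S phase and mitotic members differed in these letters. RefSeq promoters of the assembly GRCm38.p6, each of 300 bases from 250 before to 50 after the gene start, were found for 29 of the 35 members, and for 27025 genes in all. Both strands were searched for E2F-type letters (TTCCCGC or TTCGCGC or TTGCCGC or TTGGCGC), for CHR letters (TTTGAA or TTTAAA) and for CCAAT. E2F-type letters stood in 8 of 12 S phase promoters (66.7%), in 2 of 17 mitotic promoters (11.8%) and in 9.7% of all promoters. CHR letters stood in 4 of 12 (33.3%), in 15 of 17 (88.2%) and in 27.9%, in the same order. CCAAT stood in 8 of 12 (66.7%), in 15 of 17 (88.2%) and in 37.8%. CHR letters together with at least 2 CCAAT boxes were found in 1 S phase promoter (8.33%), in 9 mitotic promoters (52.9%) and in 3.19% of all promoters. A match is a run of letters in this window, and matches that overlap were counted separately.

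**Figure D1:**
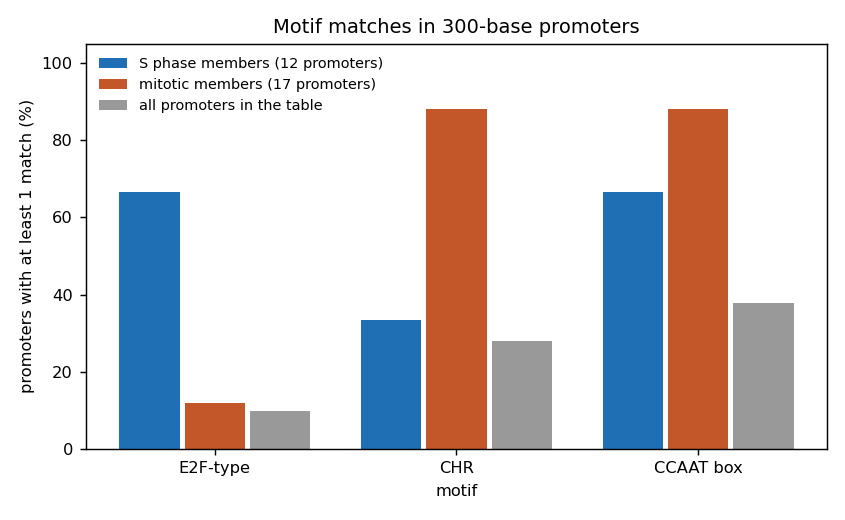
Share of 300-base promoters with at least 1 match (vertical axis, percent) for 3 motifs (horizontal axis), in 12 S phase promoters, 17 mitotic promoters and all promoters of the table. E2F-type letters are most frequent among S phase members (66.7%), and CHR letters among mitotic members (88.2%).

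The promoters below show both arrangements and the members to which the results return. Mcm6 had the most E2F-type matches, Rrm2 and Tk1 differed from wild type in opposite directions in the ZnF4 mutant, and Kif11 and Top2a are mitotic members called in a comparison. They lie at chr1:128359656-128359955 (minus strand, Mcm6), chr12:24708004-24708303 (plus strand, Rrm2), chr11:117825965-117826264 (minus strand, Tk1), chr19:37376132-37376431 (plus strand, Kif11) and chr11:99024140-99024439 (minus strand, Top2a) of GRCm38.p6. Each reads 5′ to 3′ in the direction of its gene, with E2F-type letters, CHR letters and CCAAT boxes of either strand in capitals.
Mcm6: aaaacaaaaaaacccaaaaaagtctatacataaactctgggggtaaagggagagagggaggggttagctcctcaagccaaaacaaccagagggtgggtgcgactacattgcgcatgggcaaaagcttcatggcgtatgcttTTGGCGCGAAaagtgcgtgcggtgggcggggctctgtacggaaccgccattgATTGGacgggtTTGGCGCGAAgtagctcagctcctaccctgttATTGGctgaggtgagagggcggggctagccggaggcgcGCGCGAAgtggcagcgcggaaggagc
Rrm2: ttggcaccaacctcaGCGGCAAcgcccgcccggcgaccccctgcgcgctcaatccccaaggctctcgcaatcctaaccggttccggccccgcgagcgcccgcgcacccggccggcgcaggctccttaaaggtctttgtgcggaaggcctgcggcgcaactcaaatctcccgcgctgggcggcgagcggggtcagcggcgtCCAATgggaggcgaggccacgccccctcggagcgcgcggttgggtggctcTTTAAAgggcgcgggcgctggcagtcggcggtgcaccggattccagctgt
Tk1: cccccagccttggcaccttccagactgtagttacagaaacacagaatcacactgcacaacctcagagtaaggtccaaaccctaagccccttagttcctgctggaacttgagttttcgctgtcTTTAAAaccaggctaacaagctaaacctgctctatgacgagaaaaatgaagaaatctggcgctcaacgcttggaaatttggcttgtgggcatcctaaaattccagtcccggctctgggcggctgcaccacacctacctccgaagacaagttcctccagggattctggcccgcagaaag
Kif11: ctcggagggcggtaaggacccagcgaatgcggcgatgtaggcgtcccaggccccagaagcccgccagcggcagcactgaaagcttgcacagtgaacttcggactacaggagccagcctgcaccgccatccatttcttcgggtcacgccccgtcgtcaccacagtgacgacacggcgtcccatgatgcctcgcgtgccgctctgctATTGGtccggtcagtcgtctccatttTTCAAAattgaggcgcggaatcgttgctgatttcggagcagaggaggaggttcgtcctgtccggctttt
Top2a: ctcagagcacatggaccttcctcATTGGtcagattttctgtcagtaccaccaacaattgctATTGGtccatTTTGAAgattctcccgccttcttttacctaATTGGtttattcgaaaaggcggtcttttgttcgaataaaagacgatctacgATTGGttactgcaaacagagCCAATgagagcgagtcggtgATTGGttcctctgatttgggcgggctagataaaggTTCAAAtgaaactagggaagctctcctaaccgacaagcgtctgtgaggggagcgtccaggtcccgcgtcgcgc
The Mcm6 promoter held 5 E2F-type matches, some overlapping, and 2 CCAAT boxes. Rrm2 held 1 of each of the 3 motifs. Tk1 held 1 CHR match, and no E2F-type letters or CCAAT were found in its window. Kif11 held a CCAAT box followed by a CHR match close to the start, and Top2a held 6 CCAAT boxes and 2 CHR matches.

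Mitotic members were lower in the ZnF4 mutant than in the ZnF1 mutant in all 21 cases, with both ZnF4 libraries below both ZnF1 libraries (25.8% of all tested genes had this order), and 5 of the 20 that could be tested passed the test. Most S phase members were lower in the ZnF4 mutant too, by less: the median log2 difference from the ZnF1 mutant was -0.26 over the 14 S phase members and -0.91 over the 21 mitotic members. Against wild type the same medians were -0.32 and -0.54, and no member passed the test. The ZnF1 mutant lay close to wild type for S phase members (median 0.03) and above it for mitotic members (median 0.24), and again no member passed. Without ZnF1 replicate 2, which was also the highest library for granulocyte and erythroid markers, the mitotic median was 0.059, and without replicate 1 it was 0.47. The S phase median turned to -0.13 without wild-type replicate 1. Each comparison with wild type used the same 2 control libraries, so these comparisons are not independent.

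Tests used limma on log2(RPKM + 0.5), fitted across the 10322 genes with a mean of at least 1 RPKM, with Benjamini-Hochberg adjustment over all of them. Genes with an adjusted p under 0.05 count as called, and differences (log2) are on that scale, which understates changes of low genes. Of the members 34 were tested, and Ccnb1 was too low. In the ZnF1 mutant against wild type 0 members were called, where 0.271% of all tested genes were, and 1 member had an unadjusted p under 0.05 (11.9% of all genes). In the ZnF4 mutant against wild type 0 members were called, where 3.2% of all genes were. An unadjusted p under 0.05 was reached there by 14 members in the downward direction (9.2% of all genes) and by 1 upward (8.23%). In the ZnF4 against the ZnF1 mutant 6 members were called, all lower, where 4.78% of all genes were called and 2.08% were called lower. There, 21 members reached an unadjusted p under 0.05 downward (10.6% of all genes) and 1 upward (9.37%). The median of all tested genes was -0.0019, -0.016 and -0.029 in the 3 comparisons.

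The calls between the mutants rest on few libraries. Without replicate 2 of the ZnF1 mutant the only call was Tk1, higher in the ZnF4 mutant, without replicate 1 there were 15 calls, all lower, without either wild-type library 1 (Top2a), and without either ZnF4 library 0. In bulk RNA, fewer cells of a type and less RNA per cell cannot be told apart, so a lower level may stand for fewer cycling cells or for less RNA in each.

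**Figure D2:**
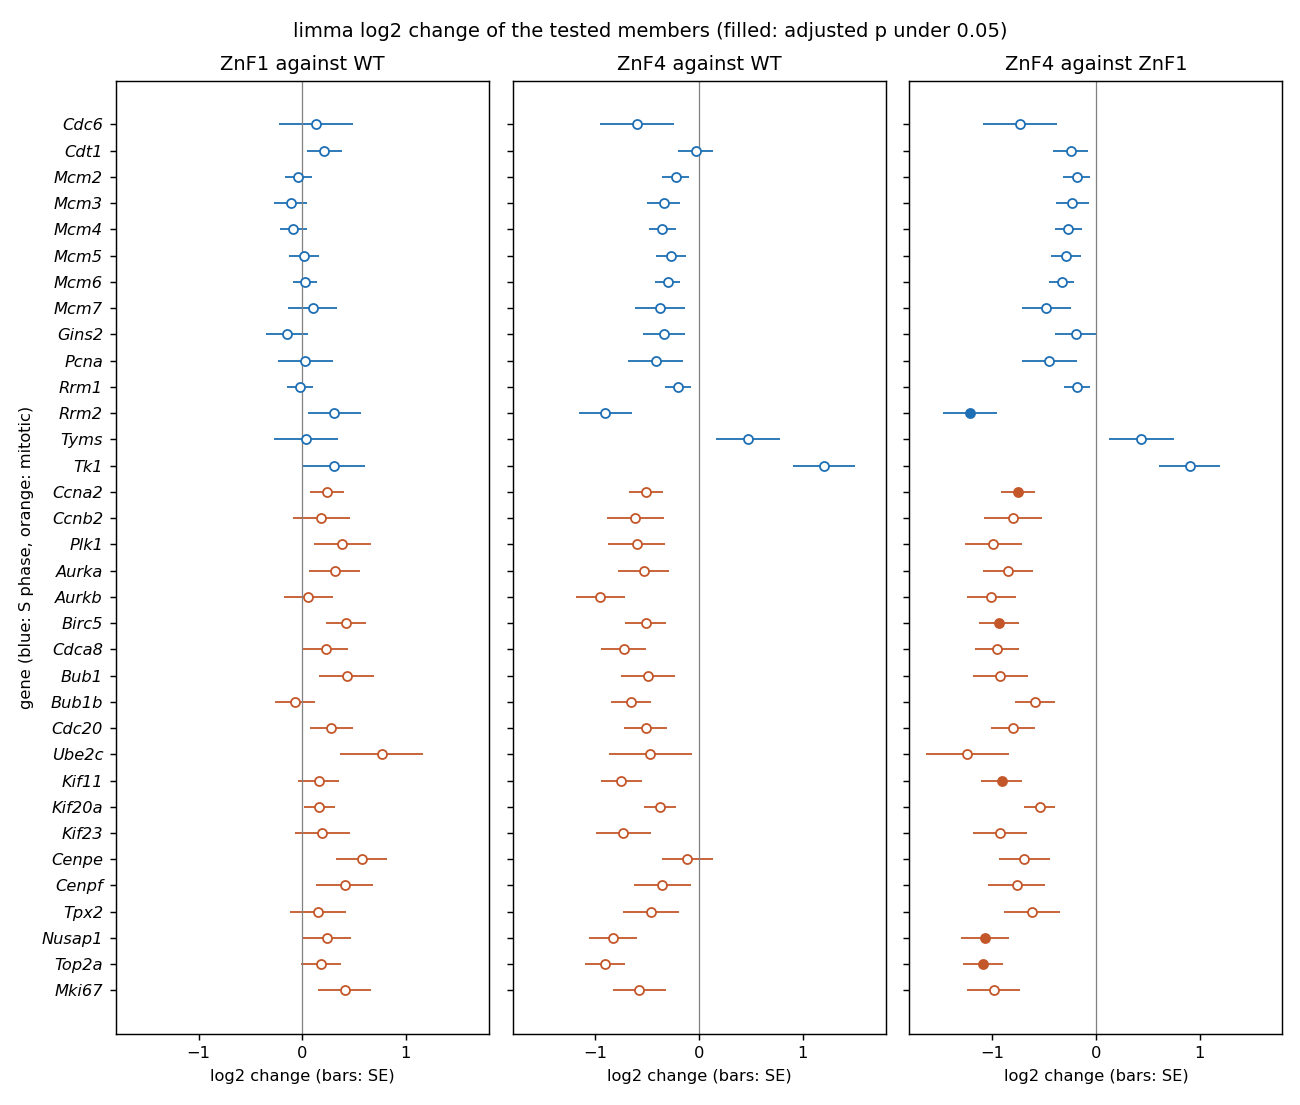
limma log2 changes (horizontal axis, bars are standard errors) of the 34 tested members (vertical axis) in the 3 comparisons, S phase members in blue and mitotic members in orange. Filled points mark the 6 members called in the ZnF4 against the ZnF1 mutant, and Tk1 stands to the right of the other members in both comparisons with the ZnF4 mutant.

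The 2 licensing factors differed in how the ZnF4 values stood to wild type. Cdt1, which brings the MCM helicase to origins, had 25.8 and 18.5 RPKM in wild type, 26.4 and 24.5 in ZnF1-/- and 22.4 and 20.4 in ZnF4-/-. The ZnF4 values fell inside the wild-type range and below both ZnF1 values. Cdc6, its partner in licensing, was near the lower limit of the table, with 1.0 and 1.9 RPKM in wild type, 1.1 and 2.2 in ZnF1-/- and 0.7 and 0.8 in ZnF4-/-. Both ZnF4 values were the lowest, and the difference from wild type (log2 -0.60, SE 0.36) had an adjusted p of 0.432 by limma.

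Helicase subunits were all modestly lower in the ZnF4 mutant, and none passed the test. Mcm6, the most abundant of them, had 38.5 and 43.2 RPKM in wild type, 40.8 and 42.4 in ZnF1-/- and 32.0 and 33.9 in ZnF4-/-. The ZnF4 libraries lay below the other 4, at log2 -0.30 (SE 0.12) from wild type with an adjusted p of 0.242 by limma, and at -0.33 (SE 0.12) from the ZnF1 mutant with an adjusted p of 0.172. Mcm4 had 22.7 and 25.2 RPKM in wild type, 24.2 and 20.9 in ZnF1-/- and 18.6 in each ZnF4 library. Its difference from wild type was log2 -0.35 (SE 0.13, adjusted p = 0.214 by limma), and the ZnF4 libraries again lay below the other 4. Mcm2, Mcm3 and Mcm5 had 29.8 to 44.9 RPKM in the wild-type libraries and differed from them by log2 -0.23 to -0.34 in the ZnF4 mutant. Mcm7 stood apart in level, at 10.6 ± 1.06 RPKM in wild type, and 85.8% of its transcript has a near-identical copy in transcripts of other genes. Gins2, a subunit of the GINS complex that travels with the helicase, had 6.65 ± 1.91 RPKM in wild type and 5.05 ± 0.0707 in ZnF4-/-. Such copies cover 70.7% of the 3900-base Gins2 transcript that was searched, while the transcript of the deposited values has 1043 bases. How the authors' counting divided reads between copies was not tested, so the level of Mcm7 is uncertain. Whether the copies reach the measured Gins2 transcript was not tested either.

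Pcna, the sliding clamp of the DNA polymerases, had 3.8 and 6.0 RPKM in wild type, 4.2 and 5.7 in ZnF1-/- and 2.9 and 4.1 in ZnF4-/-. The ZnF4 and wild-type values overlapped, and 51.4% of the transcript has a near-identical pseudogene copy, so this level is uncertain too.

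Enzymes of nucleotide synthesis split. Rrm2, the small subunit of ribonucleotide reductase and the one whose level follows the cell cycle, had 10.7 and 16.6 RPKM in wild type, 14.1 and 19.6 in ZnF1-/- and 8.0 and 5.9 in ZnF4-/-. It was the only S phase member called, lower by log2 -1.22 (SE 0.26, adjusted p = 0.0412 by limma) in the ZnF4 than in the ZnF1 mutant, and it differed from wild type by -0.91 (SE 0.26, adjusted p = 0.12). Rrm1, the large subunit, had 28.8 and 33.3 RPKM in wild type, 29.3 and 31.8 in ZnF1-/- and 26.2 and 27.5 in ZnF4-/-. Its difference from wild type was log2 -0.20 (SE 0.13) with an adjusted p of 0.45, so the 2 subunits of the enzyme differed in the size of the ZnF4 difference, which was not tested between them.

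Tk1 and Tyms were the S phase members that were higher in the ZnF4 mutant. Tk1, the cytosolic thymidine kinase that salvages thymidine, had 4.3 and 4.9 RPKM in wild type, 4.1 and 8.1 in ZnF1-/- and 9.6 and 13.2 in ZnF4-/-. Both ZnF4 values were above the other 4, and the difference from wild type was log2 1.21 (SE 0.30), with an adjusted p of 0.0881 by limma. Against the ZnF1 mutant it was 0.90 (SE 0.30, adjusted p = 0.147). Tyms, thymidylate synthase, was near the lower limit, with 1.1 and 1.2 RPKM in wild type, 0.8 and 1.7 in ZnF1-/- and 2.0 and 1.6 in ZnF4-/-. Its difference from wild type was log2 0.47 (SE 0.31, adjusted p = 0.476). No E2F-type letters were found in the promoter windows of Tk1 and Tyms, nor in those of Mcm2 and Pcna.

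The neighbours of Tk1 were looked at by gene order, after its values had been seen. In RefSeq GRCm38.p6 the order is Syngr2, Tk1, Afmid, Birc5. Syngr2, a vesicle membrane protein of the synaptogyrin family, had 65.9 and 68.5 RPKM in wild type, 61.1 and 54.4 in ZnF1-/- and 114.9 and 134.6 in ZnF4-/-. It was higher in the ZnF4 mutant than in wild type by log2 0.88 (SE 0.13, adjusted p = 0.0173 by limma) and than in the ZnF1 mutant by 1.10 (SE 0.13, adjusted p = 0.00616). The call against wild type was lost without any 1 of the wild-type or ZnF4 libraries (highest adjusted p 0.157), and that against the ZnF1 mutant without either ZnF4 library (highest adjusted p 0.0838). Afmid, an enzyme of tryptophan breakdown, had 9.7 and 10.2 RPKM in wild type, 9.3 and 9.9 in ZnF1-/- and 13.6 and 18.1 in ZnF4-/-, a difference of 0.63 from wild type (SE 0.16, adjusted p = 0.0948). Of these 4 genes Birc5 alone was lower in the ZnF4 mutant. Part of the Tk1 transcript (17.3%) is near-identical to transcripts of 2 other genes, of which Afmid is 1, and whether reads were shared was not tested. Such a share was also found for Ccna2 (17.3%) and Kif20a (25.9%), each with 1 other gene.

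**Figure D3:**
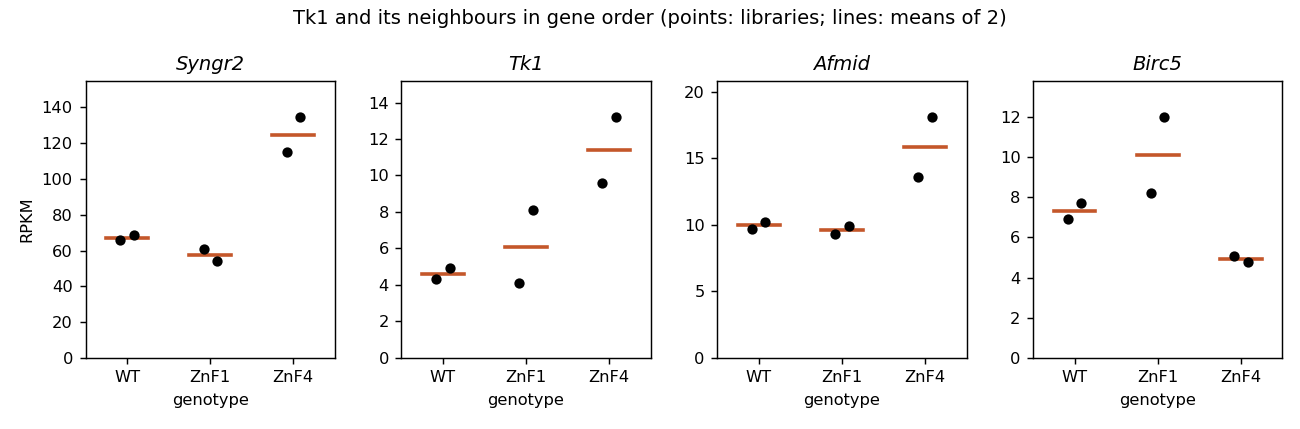
RPKM (vertical axis) of Tk1 and its neighbours in gene order, 1 panel a gene, for the libraries of each genotype (points, horizontal axis) with the mean of 2 (lines). Syngr2, Tk1 and Afmid are highest in both ZnF4 libraries, and Birc5 is lowest there.

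Cyclins placed in the mitotic class were lower in the ZnF4 mutant. Ccna2, cyclin A2, had 16.1 and 19.1 RPKM in wild type, 19.0 and 22.7 in ZnF1-/- and 13.4 and 11.0 in ZnF4-/-. It was called lower in the ZnF4 than in the ZnF1 mutant by log2 -0.75 (SE 0.16, adjusted p = 0.0452 by limma). Against wild type the difference was -0.51 (SE 0.16, adjusted p = 0.158). Ccnb2, a B-type cyclin that activates Cdk1, had 9.8 and 15.0 RPKM in wild type, 12 and 16.0 in ZnF1-/- and 9.8 and 6.1 in ZnF4-/-. The first ZnF4 value equalled the lower wild-type value, so those groups touched, while both ZnF4 values lay below the ZnF1 values (log2 -0.80, SE 0.28, adjusted p = 0.164). Ccnb1 lay between 0.3 and 1.0 RPKM in the 6 libraries and was not tested, and 51.9% of its transcript has near-identical copies in 3 pseudogenes.

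Mitotic kinases were lowest in the ZnF4 libraries. Aurkb, the kinase of the chromosomal passenger complex, had 11.1 and 16.1 RPKM in wild type, 11.5 and 16.9 in ZnF1-/- and 7.3 and 6.1 in ZnF4-/-. The ZnF4 values were the lowest, at log2 -0.95 (SE 0.24, adjusted p = 0.0912 by limma) from wild type and -1.01 (SE 0.24, adjusted p = 0.0602) from the ZnF1 mutant. Plk1, which promotes entry and spindle formation, had 3.2 and 5.1 RPKM in wild type, 4.8 and 6.2 in ZnF1-/- and 3.1 and 2.0 in ZnF4-/-. Aurka, the kinase of spindle poles, had 6.1 and 7.1, then 6.4 and 10.7, then 4.0 and 4.8 RPKM in the same order. For both kinases each ZnF4 value was below the other 4 (adjusted p = 0.0964 for Plk1 and 0.103 for Aurka against the ZnF1 mutant).

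Subunits of the passenger complex, to which Aurkb belongs, had the same order of groups. Birc5 (survivin), which docks the complex on chromosomes, had 6.9 and 7.7 RPKM in wild type, 8.2 and 12 in ZnF1-/- and 5.1 and 4.8 in ZnF4-/-. It was called lower in the ZnF4 than in the ZnF1 mutant (log2 -0.94, SE 0.20, adjusted p = 0.04 by limma), with -0.52 (SE 0.20, adjusted p = 0.232) against wild type. Cdca8 (borealin) had 9.7 and 12.8 RPKM in wild type, 11.4 and 15.1 in ZnF1-/- and 7.6 and 5.6 in ZnF4-/-. Its differences were -0.73 (SE 0.22, adjusted p = 0.138) from wild type and -0.95 (SE 0.22, adjusted p = 0.0544) from the ZnF1 mutant.

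Checkpoint and anaphase genes were lower in the ZnF4 mutant in every case, and none was called. Bub1b (BubR1), which holds back anaphase until chromosomes are attached, had 12.9 and 15.4 RPKM in wild type, 11.2 and 16.0 in ZnF1-/- and 8.2 and 9.3 in ZnF4-/-. Its difference from wild type was log2 -0.66 (SE 0.19, adjusted p = 0.13 by limma), larger than its difference from the ZnF1 mutant (-0.59). Cdc20, the activator of the anaphase ligase, had 4.1 and 3.9 RPKM in wild type, 4.1 and 6.0 in ZnF1-/- and 2.5 and 2.8 in ZnF4-/-. Bub1, a checkpoint kinase, had 2.4 and 2.7, then 3.0 and 4.3, then 2.1 and 1.3 RPKM in the same order. Ube2c, the ubiquitin-conjugating enzyme of the anaphase ligase, had 5.6 and 6.9 RPKM in wild type, 6.5 and 18.2 in ZnF1-/- and 4.6 and 4.1 in ZnF4-/-. Its difference between the mutants (log2 -1.24, SE 0.40, adjusted p = 0.142) was the largest in size among the 34 tested members, and of its ZnF1 values 1 lay inside the wild-type range.

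Motors of the spindle included a called member. Kif11 (Eg5), the motor that pushes the spindle poles apart, had 7.3 and 9.5 RPKM in wild type, 8.7 and 10.1 in ZnF1-/- and 5.5 and 4.1 in ZnF4-/-. It was called lower in the ZnF4 than in the ZnF1 mutant (log2 -0.91, SE 0.20, adjusted p = 0.0473 by limma) and differed from wild type by -0.75 (SE 0.20, adjusted p = 0.104). Kif23, a motor of the central spindle in cytokinesis, had 7.7 and 11.8 RPKM in wild type, 9.0 and 13.4 in ZnF1-/- and 6.4 and 4.8 in ZnF4-/-. Kif20a, another cytokinesis motor, had 8.3 and 9.4, then 9.3 and 10.7, then 7.1 and 6.3 RPKM in the same order. For both, the ZnF4 libraries lay below the other 4, and the adjusted p against wild type was 0.213 for Kif23 and 0.254 for Kif20a.

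Kinetochore genes showed the smallest ZnF4 differences from wild type among the tested mitotic members. Cenpe, a motor that links kinetochores to microtubules, had 3.0 and 3.1 RPKM in wild type, 3.8 and 6.0 in ZnF1-/- and 3.2 and 2.4 in ZnF4-/-. Its difference of log2 0.57 (SE 0.25) between the ZnF1 mutant and wild type had an adjusted p of 0.418 by limma, and its ZnF4 values overlapped wild type (-0.12, SE 0.25, adjusted p = 0.853). Cenpf, a large coiled-coil protein of the kinetochore, had 2.7 and 3.1 RPKM in wild type, 3.2 and 5.0 in ZnF1-/- and 2.7 and 1.7 in ZnF4-/-, so its first ZnF4 value equalled a wild-type value.

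Spindle assembly and chromosome structure held the member with the smallest p. Nusap1, which bundles spindle microtubules, had 6.6 and 10 RPKM in wild type, 8.7 and 10.8 in ZnF1-/- and 5.0 and 3.8 in ZnF4-/-, and was called lower in the ZnF4 than in the ZnF1 mutant (log2 -1.07, SE 0.23, adjusted p = 0.0474 by limma). No match of any of the 3 motifs was found in its promoter window. Tpx2, which activates Aurora A on the spindle, had 7.15 ± 2.05 RPKM in wild type, 8.1 ± 2.83 in ZnF1-/- and 4.95 ± 0.495 in ZnF4-/-, and was the only tested mitotic member with an unadjusted p above 0.05 between the mutants. Top2a, the topoisomerase that untangles sister chromatids, had 29.9 and 40.2 RPKM in wild type, 35.3 and 44.1 in ZnF1-/- and 20.5 and 16.3 in ZnF4-/-. It was called lower in the ZnF4 than in the ZnF1 mutant by log2 -1.09 (SE 0.19, adjusted p = 0.0247), and its difference from wild type (-0.91, SE 0.19) had an adjusted p of 0.057. Mki67, which coats mitotic chromosomes and is the source of the Ki-67 antigen, had 21.9 and 25.7 RPKM in wild type, 24.9 and 40.4 in ZnF1-/- and 18.9 and 13.1 in ZnF4-/-. The ZnF4 libraries of Top2a and Mki67 were below the other 4, and for Mki67 the difference from the ZnF1 mutant was -0.99 (SE 0.26, adjusted p = 0.0783).

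**Figure D4:**
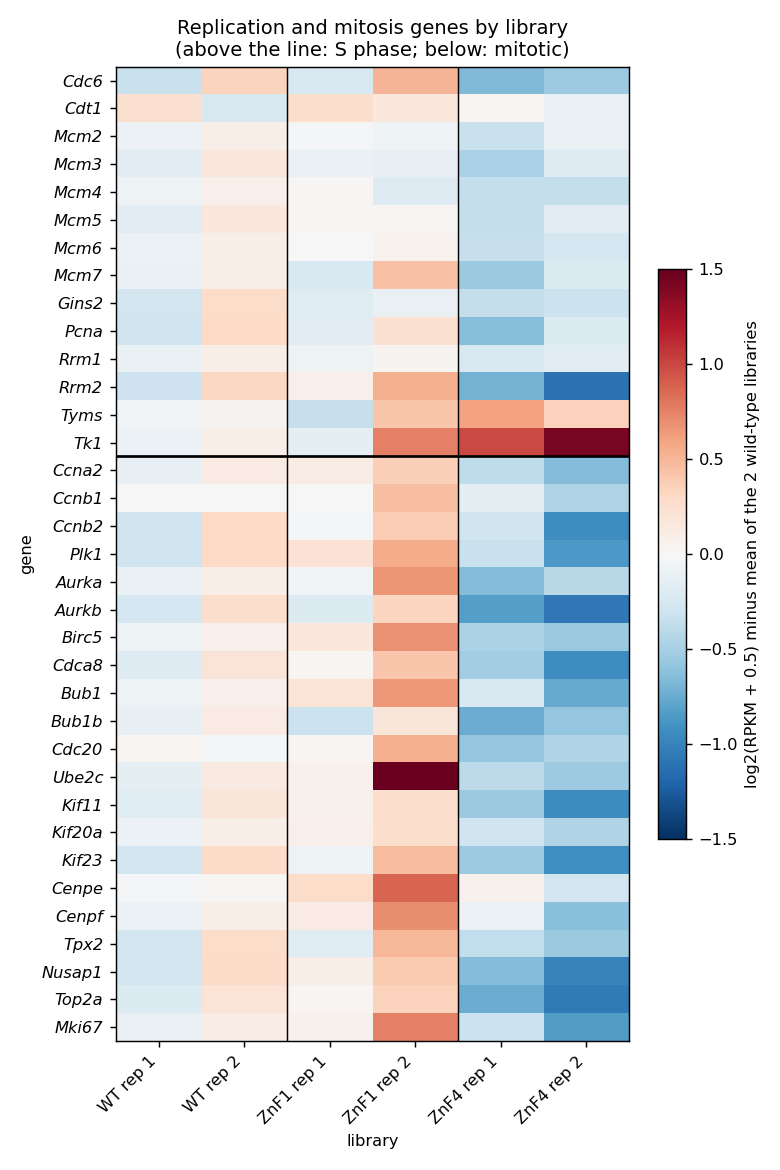
Difference of log2(RPKM + 0.5) from the mean of the 2 wild-type libraries (colour, red higher and blue lower) for the 35 members (vertical axis) in the 6 libraries (horizontal axis). All 21 mitotic members (below the horizontal line) are highest in replicate 2 of the ZnF1 mutant, and Tk1 and Tyms are the S phase members that are red in both ZnF4 libraries.

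Counted over members, the classes differed in how the libraries were ordered. Both ZnF4 libraries lay below both wild-type libraries for 10 of 14 S phase and 18 of 21 mitotic members (27.2% of all tested genes), and above them for 2 S phase members (23.1%), Tk1 and Tyms. Both ZnF4 libraries lay below both ZnF1 libraries for 11 of 14 and 21 of 21 (25.8% of all tested genes). Both ZnF1 libraries lay above wild type for 0 of 14 and 4 of 21, the 4 being Birc5, Bub1, Cenpe and Cenpf. The mitotic count is near the share of all tested genes with that order (21.1%), so it does not set these members apart. Replicate 2 of the ZnF1 mutant was the highest library for all 21 mitotic members but for 3 S phase members, while replicate 2 of wild type was the highest for 8 S phase members. Members of a class share their libraries and tend to move together, so these counts are not independent observations.

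The 2 ZnF4 libraries ordered the classes in opposite ways. Replicate 2 was above replicate 1 for 10 of 14 S phase members and below it for 18 of 21 mitotic members. In each library, the median over members of the difference from the wild-type mean was taken for each class. For S phase members it was -0.10 and 0.10 in wild type, -0.09 and 0.11 in ZnF1-/- and -0.35 and -0.20 in ZnF4-/-. For mitotic members it was -0.12 and 0.12 in wild type, 0.06 and 0.47 in ZnF1-/- and -0.40 and -0.65 in ZnF4-/-. Both ZnF4 libraries were thus lowest for both classes. The S phase median minus the mitotic median was 0.02 and -0.02 in wild type, -0.15 and -0.36 in ZnF1-/- and 0.04 and 0.45 in ZnF4-/-, with a pooled SD of 0.189 between replicates. The first ZnF4 library was close to wild type in this difference, and the second was above all others. Without ZnF4 replicate 1 the difference between classes against wild type was 0.45 and without replicate 2 it was 0.04, so 1 library decides its size. Between the mutants it was 0.65, with 0.38 without ZnF1 replicate 2 and 0.39 without ZnF4 replicate 2. With Ccna2, Top2a and Mki67 left out it was 0.62 between the mutants and 0.20 in the ZnF4 mutant against wild type. The S phase median of the ZnF4 mutant against wild type was -0.15 without wild-type replicate 2.

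**Figure D5:**
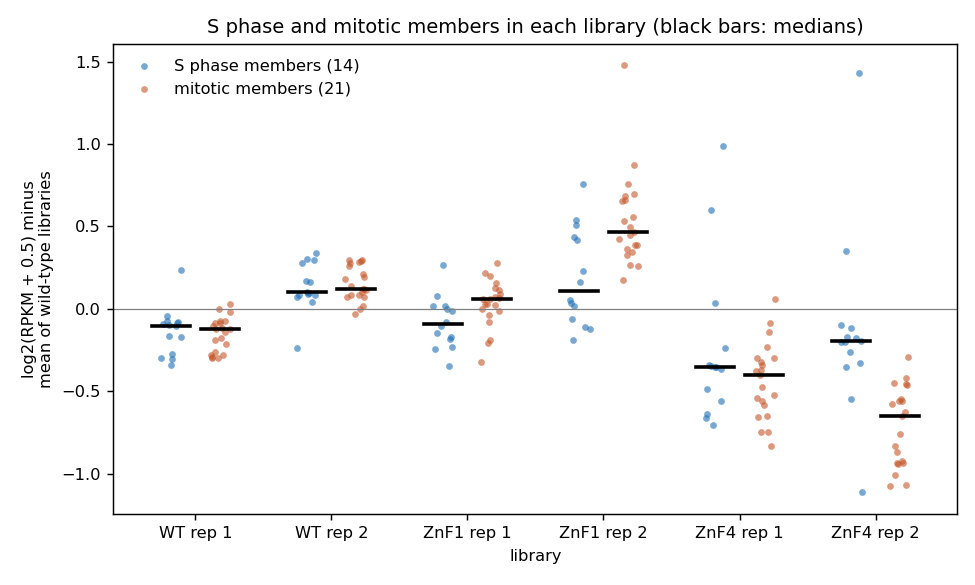
Difference of log2(RPKM + 0.5) from the wild-type mean (vertical axis) for the 14 S phase members (blue) and 21 mitotic members (orange) in each library (horizontal axis), with medians as black bars. The medians are lowest in the ZnF4 libraries, and the mitotic median is highest (0.47) in replicate 2 of the ZnF1 mutant.

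Other genes of the same processes were read from wider lists. Of 48 further replication genes, all tested, 0 were called in either mutant against wild type. In the ZnF4 against the ZnF1 mutant 1 was called lower, a share near the 2.08% of all tested genes called lower there. That gene was Slbp, which binds histone mRNA (log2 -0.72, SE 0.14, adjusted p = 0.0333 by limma). The smallest p against wild type in the ZnF4 mutant was that of Uhrf1, which carries DNA methylation through replication, with 8.8 and 13.0 RPKM in wild type and 6.0 and 5.7 in ZnF4-/- (-0.82, SE 0.19, adjusted p = 0.0751). Next was Gmnn, the inhibitor of Cdt1 (-0.72, SE 0.18, adjusted p = 0.0944). The median of the replication list was -0.17 in the ZnF4 mutant against wild type and -0.26 between the mutants. Between the mutants 16 of the 48 had an unadjusted limma p under 0.05 downward (10.6% of all tested genes) and 0 upward (9.37%). In the ZnF1 mutant the smallest p was that of Prim2, a primase subunit (0.51, SE 0.15, adjusted p = 0.24), followed by Pole2 (0.35, SE 0.16, adjusted p = 0.439).

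Of 59 further mitosis genes, 55 were tested, 0 were called in either mutant against wild type and 1 was called lower in the ZnF4 than in the ZnF1 mutant, again near the 2.08% of all tested genes. That gene was Ncaph, a condensin subunit, with 10.5 and 14 RPKM in wild type, 11.8 and 14.3 in ZnF1-/- and 7.1 and 6.3 in ZnF4-/- (log2 -0.91, SE 0.18, adjusted p = 0.0341 by limma, and -0.81 with an adjusted p of 0.0642 against wild type). Cdc25b, a phosphatase that activates Cdk1, had 66.4 and 61.1 RPKM in wild type, 59.8 and 47.4 in ZnF1-/- and 38.8 and 42.2 in ZnF4-/- (-0.65, SE 0.14, adjusted p = 0.0667 against wild type). The medians of the mitosis list were 0.17 in the ZnF1 mutant against wild type, -0.48 in the ZnF4 mutant against wild type and -0.61 between the mutants. An unadjusted limma p under 0.05 between the mutants was reached downward by 36 of the 55 (10.6% of all tested genes) and upward by 0 (9.37%). Genes of a list share their libraries, so these counts are not independent observations. In the ZnF1 mutant the smallest p values were those of Kif20b (0.60, SE 0.19, adjusted p = 0.266) and Smc2 (0.36, SE 0.15, adjusted p = 0.398). The call of Slbp was lost without any 1 of the 6 libraries (adjusted p up to 0.193), and that of Ncaph without any but replicate 1 of the ZnF1 mutant (up to 0.232).

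Regulators of both programmes included E2f2, an activator E2F of high level in these cells. It had 89.0 and 113.1 RPKM in wild type, 79.3 and 84.7 in ZnF1-/- and 45.6 and 39.6 in ZnF4-/-. E2f2 was called lower in the ZnF4 mutant than in wild type by log2 -1.23 (SE 0.15, adjusted p = 0.00883 by limma) and than in the ZnF1 mutant by -0.94 (SE 0.15, adjusted p = 0.0188). Its level relative to wild type was lower in every fit that left out 1 library (-1.06 to -1.40), but the call was lost without any 1 wild-type or ZnF4 library (adjusted p 0.0598 to 0.14). The call between the mutants was lost without replicate 2 of the ZnF1 mutant and without either ZnF4 library (up to 0.164). E2f1, another activator, had 7.6 and 11.7 RPKM in wild type, 10.4 and 10.8 in ZnF1-/- and 5.1 and 4.7 in ZnF4-/-, and was called lower in the ZnF4 than in the ZnF1 mutant (-1.04, SE 0.20, adjusted p = 0.0331), a call lost without any 1 library of either mutant (highest adjusted p 0.23). Foxm1, an activator of mitotic genes, had 6.3 and 8.5 RPKM in wild type, 7.9 and 11.2 in ZnF1-/- and 5.0 and 3.5 in ZnF4-/-, with an adjusted p of 0.0536 between the mutants. Of the 21 regulators 19 were tested, and 0 were called in the ZnF1 mutant against wild type (0.271% of all tested genes). E2f2 alone was called in the ZnF4 mutant against wild type (3.2% of all tested genes). Called between the mutants were 2, both lower, where 2.08% of all tested genes were called lower.

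Markers of other marrow cells moved with the libraries. Every library had the B cell markers Cd74 (5700 to 9205 RPKM) and Cd79b (1604 to 2227 RPKM). Of 8 B cell markers 0 were called against wild type (0.271% and 3.2% of all tested genes). Their median log2 difference was -0.12 in ZnF1-/- (1 above 0, 7 below) and -0.22 in ZnF4-/- (2 above 0, 6 below). The largest in size were those of Pax5 (-0.76) and Ebf1 (-0.60) in ZnF1-/-. The T cell marker Cd3e was at 0.2 to 0.7 RPKM. Cd2 and Lck, which some B cells also express, were at 94.3 to 156.7 and 11.2 to 19.9. Cd8a was at 1.2 and 1.5 RPKM in ZnF1-/- and at 0.1 to 0.2 in the other libraries. Both ZnF1 libraries lay above wild type for 4 of 6 T cell markers (21.1% of all genes) and below it for 2. The summed level of 7 granulocyte precursor markers was 11.3 and 33.6 RPKM in wild type, 58.3 and 376.0 in ZnF1-/- and 71.7 and 82.3 in ZnF4-/-, led by Mpo and Elane. That of 12 mature granulocyte markers was 472.3 and 751.1, then 1473.4 and 7913.7, then 1814.7 and 2010.5, led by S100a9 and S100a8. That of 13 erythroid markers was 149.7 and 169.7, then 103.8 and 698.8, then 174.6 and 247.3, led by Hbb-b1 and Alas2. No marker of these 3 lists was at 0 in any library. Replicate 2 of the ZnF1 mutant was thus the highest library for these 3 lists as for the mitotic members, and their part in its mitotic levels was not tested. In the ZnF4 mutant too the granulocyte sums were above wild type, and their part in the ZnF4 levels of the members was not tested.

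Markers of earlier and later B cell stages were read in the same way. The summed level of 9 pro-B and pre-B markers was 57.4 and 80.0 RPKM in wild type, 75.9 and 87.7 in ZnF1-/- and 201.9 and 171.6 in ZnF4-/-, led by Igll1 (130.4 and 121.3 in ZnF4-/-, against 5.7 and 13.7 in wild type) and Sox4. Igll1 made up most of the ZnF4 sum, and the list did not move as a whole: against wild type 4 of its 9 genes had a log2 difference above 0 and 5 below 0, with a median of -0.30. Igll1 (3.75, SE 0.37, adjusted p = 0.00549 by limma), Vpreb1 (2.64, SE 0.36, adjusted p = 0.0116) and Kit (2.79, SE 0.52, adjusted p = 0.0361) were called higher and Rag1 (-2.18, SE 0.29, adjusted p = 0.0109) was called lower. These 4 were the only calls of the list in that comparison, where 3.2% of all tested genes were called. Sox4 was at 13.8 and 13.3 RPKM in ZnF4-/-, below its wild-type values of 16.1 and 17.4. That of 8 plasma cell markers was 676.6 and 159.9 RPKM, then 162.4 and 140.1, then 246.9 and 234.0, led by Igj and Xbp1, with Tnfrsf17 at 0 in wild-type replicate 2. That of 6 germinal centre markers was 41.5 and 35.4 RPKM, then 38.7 and 38.5, then 26.3 and 27.5, led by Bcl6 and Fas. Of 6 tested plasma cell markers 1 was called lower in the ZnF1 mutant than in wild type (adjusted p = 0.0347 by limma). In that comparison 0.271% of all tested genes were called. Of 5 tested germinal centre markers 1 was called lower in the ZnF4 mutant than in wild type (adjusted p = 0.00616 by limma). Between the mutants 1 was called lower (adjusted p = 0.0247 by limma), where 2.08% of all tested genes were. The part of these lists in the results was not tested. By Xist and Ddx3y, replicate 2 of each mutant came from male and the other 4 libraries from female mice. With a term for sex in the fit, 3 members were called between the mutants, Tk1 higher and Top2a and Birc5 lower, in place of the 6 lower.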

How the data were processed

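The authors deposited RPKM values, rounded to 0.1, for polyA-enriched RNA of 6 libraries. Per the submitters' processing notes TopHat, bedtools and the build mm9 were used, and versions and the counting of copies are not given in the sources used here. Read counts could not be recovered, so depth per library is unknown and no counting interval is given. From these values log2(RPKM + 0.5) was computed, and limma 3.58.1 in R 4.3.3 was fitted with 1 coefficient per genotype over all 6 libraries (eBayes with trend, two-sided, 3 residual degrees of freedom before moderation) to genes with a mean of at least 1 RPKM, and was tested on simulated data. The members and lists were chosen with earlier results of these data known. Described in full were members with an unadjusted p under 0.05 or the highest mean of their role. From wider lists called genes were named, or the 2 with the smallest p, and from marker lists the 2 with the highest mean. Copies were matches of at least 97% identity over at least 50 bases (blastn 2.17.0) in transcripts of other genes. Positions in the genome were not used, so transcripts of other genes that overlap a member also count. The searched transcript of a member could differ in length from that of the deposited values. Alternatives were other pseudocounts, filters, normalizations, fits, a sex term, a replicate block and leaving out each library.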

Additional observations from a re-analysis of the deposited data

How the results depend on the processing

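Over the alternatives tried, 154 of the class medians, their differences and the counts of calls stayed within the spread between replicates, or within 1.5 times the count. By more than that, 9 medians or differences moved and 1 reversed, while 10 counts fell and 6 rose. Some of the 154 could not change. The replicate block leaves class medians as they are, and so does leaving out a library of the genotype not compared. The sex term cannot move the medians between the mutants. The S phase median of the ZnF1 mutant against wild type (0.03) had no stable sign: it was -0.13 without wild-type replicate 1, -0.091 without ZnF1 replicate 2, -0.075 with a sex term and -0.01 after quantile normalization (range 0.12 to -0.13 without 1 library). The other class medians and differences kept their sign under every alternative run. The number of members called in the ZnF4 mutant against wild type was 1 with a replicate block and 3 in a fit of only the 2 genotypes, in place of 0. Between the mutants it was 2 after quantile normalization, 3 with a sex term, 0 with no filter on low values, 1 in a fit of only the 2 genotypes and 1 without the trend, in place of 6; the cause was not tested. Leaving out 1 library at a time gave 0 to 1 calls in the ZnF1 mutant against wild type, 0 to 3 in the ZnF4 mutant against wild type and 0 to 15 between the mutants. It moved the mitotic median from 0.059 to 0.47 in the ZnF1 mutant against wild type and from -0.63 to -1.15 between the mutants. It moved the S phase median of the ZnF4 mutant against wild type from -0.15 to -0.43. The S phase minus mitotic difference ranged from 0.044 to 0.45 in the ZnF4 mutant against wild type and from 0.38 to 0.92 between the mutants. Leaving out Mcm7, Gins2, Pcna and Ccnb1 for their copies, an alternative added after seeing the data, changed no direction. Among single genes, whether called or not in the main fit, 672 values kept that status, 97 lost a call, 30 gained one and 0 changed direction. The 672 include genes that were called in neither fit, so they are not a count of calls kept.

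Whether the replicate numbers pair the libraries could not be settled. The differences between replicates correlated at 0.28 for wild type and ZnF1, -0.0327 for wild type and ZnF4 and 0.208 for the mutants. In the mutants, but not in wild type, the replicates also differed in sex. With the replicate block the calls among members were 0, 1 (Tk1) and 5, in place of 0, 0 and 6. With 2 libraries per genotype and unknown depth, small differences were not detectable.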
